A study of Mus musculus with 4 samples.

Results

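Venous endothelial cells (ECs) of the mouse brain after transient middle cerebral artery occlusion (tMCAO) were chosen cell by cell from the unique molecular identifiers (UMIs, each counting 1 captured RNA molecule) that a cell held. A cell was kept with 200 to 6000 detected genes and at most 10% mitochondrial UMIs. It counted as endothelial with a UMI of at least 3 of Cldn5, Pecam1, Cdh5, Flt1 and Ptprb and at most 1 UMI in total of Mog, Kcnj8, Myh11 and C1qa, which mark oligodendrocytes, pericytes, smooth muscle cells and microglia. It counted as venous with a UMI of at least 2 of Vwf, Nr2f2, Ackr1, Selp and Il1r1 and of at most 1 of the arterial genes Gkn3, Bmx, Sema3g, Vegfc, Cytl1 and Fbln5. This rule found 4560 members among 54754 kept cells, or 8.33%, and among 28480 cells that passed the endothelial gate. The members numbered 626 in the sham library, 1386 on day 1, 1287 on day 3 and 1261 on day 7.

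The study made 1 droplet single-cell RNA library for each of 4 groups, to follow brain cells over the first week of reperfusion injury. The mice were male C57/BL6 animals of 8 weeks, with no genotype or transgene named. In tMCAO a filament is passed into the vessel to block the right middle cerebral artery and is then withdrawn, and the sham mice had the operation without the blockage. Cells came from the perfused hemisphere on the operated side after digestion with papain and a Percoll step, and were captured 1, 3 or 7 days after tMCAO. The sample label of the sham library gives no day, while the text on the series design places it at day 7, and the number of mice behind each library was not given in the sources used here. With 1 library per group no test between groups could be made. All intervals in the text are exact 95% intervals that cover counting error only, and the spread between mice is unknown. All 3 injury days are set against the same sham library, so a feature of that library enters every ratio, and the sham condition and the sham library cannot be told apart.

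Veins and postcapillary venules are where white blood cells leave the blood. Their ECs store von Willebrand factor (Vwf) and P-selectin (Selp), carry the atypical chemokine receptor Ackr1 and respond to interleukin-1 through Il1r1, while the nuclear receptor Nr2f2 (COUP-TFII) keeps vein identity. When cytokines reach them, these cells place selectins and the immunoglobulin-family adhesion molecules on their surface and secrete chemokines and acute phase proteins. In the brain they also share the barrier transporters of capillaries to a lesser degree.

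The genes of the rule are given as a description only, because they chose the cells. Levels are given as CPM, the summed UMIs of a gene in the members of a library per 1000000 of all their UMIs. Where 4 values follow each other they stand for sham, day 1, day 3 and day 7, in that order. Vwf was at 822, 1177, 2033 and 1463 CPM, Nr2f2 at 158, 141, 213 and 313 CPM and Il1r1 at 157, 166, 390.2 and 279 CPM. Ackr1 was at 65.5, 205, 2775 and 166 CPM and Selp at 7.45, 26.9, 303.5 and 15.9 CPM. Ackr1 and Selp stood highest on day 3 by a wide margin, whereas Nr2f2 was highest on day 7. A UMI of Ackr1 was held by 14.9%, 29.1%, 65.5% and 22.7% of members, and a UMI of Vwf by 96.0%, 98.1%, 97.7% and 96.1%. The members therefore entered by different genes. The pair of Vwf and Nr2f2 alone was the most common combination in sham (185 cells, 29.6%) and on day 7 (337 cells, 26.7%). On day 1 it was Vwf with Il1r1 (377 cells, 27.2%), and on day 3 all 5 genes together (253 cells, 19.7%). Members with 4 or 5 of the 5 genes made up 7.99% in sham, 15.8% on day 1, 38.9% on day 3 and 15.9% on day 7.

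At the threshold itself, members with exactly 2 venous genes numbered 375, 814, 509 and 655 and had a median of 5210, 4322, 2470 and 2940 UMIs. Endothelial-gate cells just outside it, with 1 venous gene, numbered 1000, 2514, 1826 and 2347 and had a median of 3666, 2058, 1982 and 2051 UMIs. Depth thus moved with membership in every library, and shares at equal depth are given below.

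The label was checked against vein markers outside the rule. Their summed level in members was 8441, 8953, 15884 and 7636 CPM, against 2563, 3897, 2148 and 1600 CPM in the other ECs, meaning endothelial-gate cells with at most 1 venous and at most 1 arterial gene. The amino acid transporter Slc38a5, a marker of brain veins, was at 699, 353, 835 and 426 CPM in members, 247, 122, 227.5 and 82.0 CPM in the other ECs and 15.4, 14.4, 13.8 and 7.18 CPM in arterial-gate cells. The vein receptor Ephb4 did not share this order, with 97.4, 55.3, 83.2 and 125 CPM in members and 79.3, 51.5, 97.0 and 92.9 CPM in the other ECs. Markers of capillaries were present in members, at a summed 5542, 3550, 2622 and 6455 CPM against 11038, 7504, 9532 and 14434 CPM in the other ECs. Lymphatic markers summed to 3.91, 8.72, 9.43 and 10.6 CPM. Artery markers outside the rule summed to 1153, 1491, 2754 and 1097 CPM in members and 1905, 2136, 2767 and 1906 CPM in the other ECs, so that on day 3 both kinds of cell had about the same sum, and of the 3 tested artery markers Mgp and Tm4sf1 were called higher and Sox17 lower on day 3. The summed vein markers were thus higher in members than in the other ECs in each library, and the members also carried capillary and arterial transcripts. The vein sum weighs abundant genes most, and the part of each of its 10 genes in it was not set out. On day 3, 2 of 8 tested vein markers were called higher than sham and 6 were not called. Most of them thus did not share the day 3 rise of the sum.

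Members were 11.2% of endothelial-gate cells in sham, with an interval of 10.35 to 12.02. The day 1 share was 19.4% (18.5 to 20.4), that of day 3 21.1% (20.1 to 22.2) and that of day 7 13.1% (12.4 to 13.8). Of all kept cells they were 6.14%, 8.29%, 11.4% and 7.62%. The order changed with the gate. When a UMI of both Vwf and Nr2f2 was asked for, the shares were 7.38%, 11.9%, 11.1% and 9.31%, so that day 1 and day 3 lay close together. When cells were first thinned to 1000 UMIs each, the shares were 3.69%, 7.23%, 13.8% and 6.80%. The share was lowest in sham and higher on each injury day under each version of the gate. Without the members that held Ackr1, however, 533 of 5607 endothelial-gate cells were left in sham and 444 of 6093 on day 3, a lower share on day 3. The rule genes themselves differed between the libraries, so more vein cells and more cells that reach the rule cannot be told apart.

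**Figure D1:**
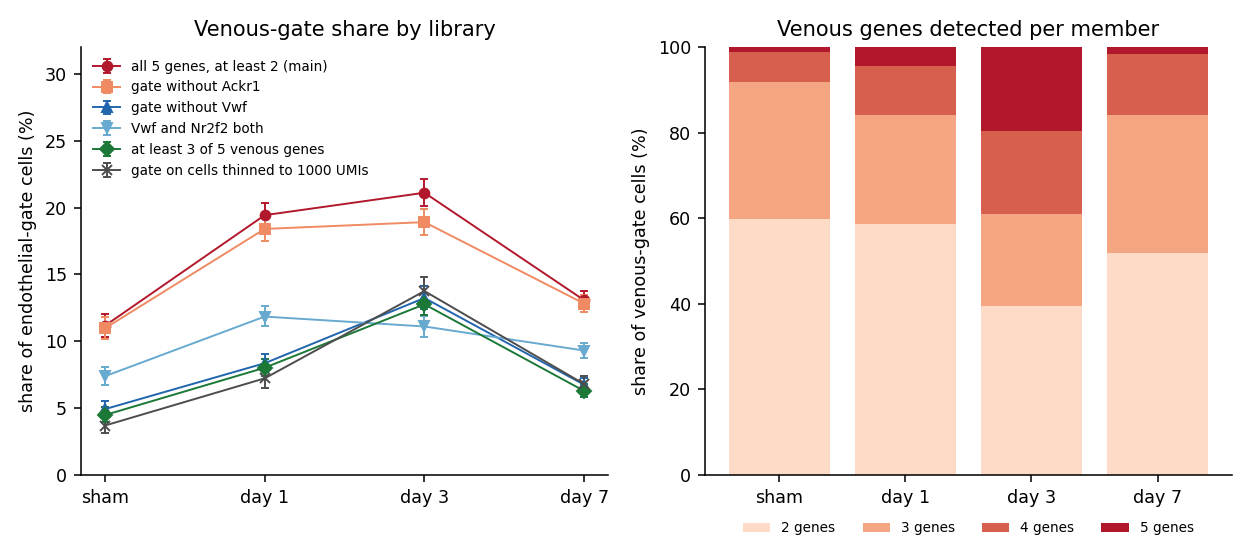
Left, the percent of endothelial-gate cells that were members in each library under 6 versions of the venous gate, with exact 95% binomial bars; right, the percent of members with UMIs of 2, 3, 4 or 5 of the venous genes. The share was 21.1% on day 3 against 11.2% in sham under the rule used, and the day 3 bar holds the most members with 4 or 5 genes (38.9%).

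The 4 libraries held 11744, 17780, 11983 and 17922 cells as deposited and 90607320, 104023002, 69392755 and 90072740 UMIs. Members held a median of 6220, 5921, 3955 and 3986 UMIs and 2568, 2358, 1872 and 2007 genes, more than the other ECs, whose median was 2824, 1686, 1905 and 1763 UMIs. The doublet caller Scrublet marked 0.959%, 6.49%, 1.55% and 3.49% of the members, and these cells were kept. Between 21 and 80 barcodes were shared by each pair of libraries among kept cells and 0 among members. RNA of other cells was measured in the members through 11 marker lists. The choroid plexus list summed to 6034, 18059, 22816 and 18799 CPM, nearly all of it Ttr, which was also at 3841, 30749, 8623 and 6591 CPM in the other ECs. The leukocyte list summed to 19.7, 24.7, 1194 and 92.7 CPM, on day 3 mostly the neutrophil genes S100a8 (491 CPM) and S100a9 (574.5 CPM), while the leukocyte gene Ptprc was at 0.186, 0.264, 5.92 and 1.54 CPM. The erythrocyte list summed to 2188, 129, 2661 and 478 CPM, the neuron list to 73.7, 784, 71.2 and 166 CPM, the oligodendrocyte list to 1064, 746, 718 and 1206 CPM, the astrocyte list to 151, 255, 182 and 173 CPM and the fibroblast list to 10.98, 51.3, 93.2 and 50.2 CPM. The pericyte list summed to 301, 282, 241 and 227 CPM, the smooth muscle list to 125.5, 138, 245 and 155 CPM and the microglia list to 30.5, 49.4, 65.4 and 51.5 CPM. The part of such RNA in the results was not tested, except that day 3 values are also given below without the members that held a UMI of S100a8 or S100a9.

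Genes were compared with sham by the ratio of their CPM. A gene was called at least 2-fold higher or lower when its log2 ratio with 10 CPM added to both levels was at least 1 or at most -1, among genes of at least 100 CPM in 1 of both libraries. On day 1, 57 of 1820 genes were called higher (3.13%) and 122 lower (6.7%). On day 3, 80 of 1838 genes were called higher (4.35%) and 100 lower (5.44%). On day 7, 34 of 2006 genes were called higher (1.69%) and 30 lower (1.5%). Day 7 thus lay nearest to sham by these counts. With libraries scaled by median-of-ratios size factors, which shifted day 7 by -0.22 on the log2 scale against sham, day 7 had 10 genes higher, all of them among the 34, and 49 lower. With mitochondrial and ribosomal protein genes left out of the total, day 1 had 90 genes higher and 116 lower. Of the 150 genes called higher on any day, 0 were higher on all 3 days. Of the 168 called lower on any day, 19 were lower on all 3. These were Isg15, Ifit1, Ifit3, Ifit3b, Irf7, Ifi35, Ifi44, Ifi27l2a, Bst2, Gbp3, Oasl2, Rsad2, Rtp4, Usp18, Xaf1, Zbp1, Slfn2, Gm42418 and Pomc. Genes of the interferon response are counted from a fixed list below. Of the genes called higher, 41 were so on day 1 alone, 61 on day 3 alone and 27 on day 7 alone.

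**Figure D2:**
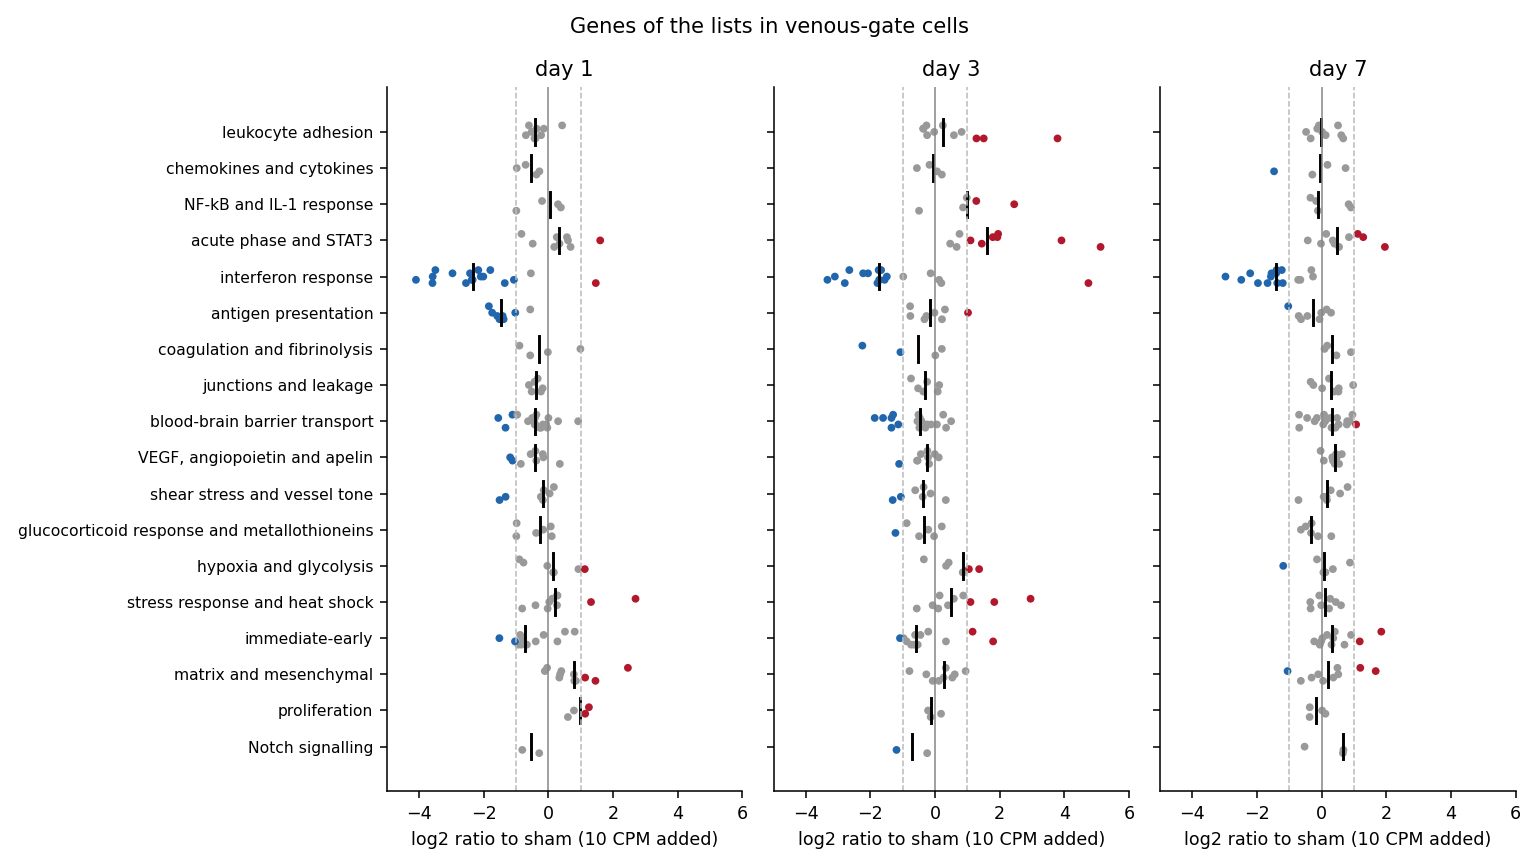
Log2 ratio to sham (10 CPM added) of each tested gene of 18 gene lists in members on day 1, day 3 and day 7; each dot is a gene, red at or above 1, blue at or below -1, and the black line is the list median. The interferon medians lie at -2.35, -1.73 and -1.40 and the acute phase median on day 3 at 1.62, while most other medians lie within 1 of 0.

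The acute phase and STAT3 genes, which cytokines of the interleukin-6 family switch on, had the highest list median on day 3. Of 10 tested genes of 16 in the list, 7 were called higher on day 3 and 0 lower, with a median log2 ratio of 1.62 against -0.09 over all genes tested. On day 1, 1 of 9 was higher, and on day 7, 3 of 10. The summed level of the list was 1607, 2255, 13702 and 2840 CPM, and the day 3 sum was 8.52-fold that of sham (8.34 to 8.71). It was 3.32-fold when members with a UMI of Ackr1 were left out and 5.43-fold with the gate read on cells thinned to 1000 UMIs. Lcn2 codes for lipocalin 2, an iron-carrier-binding acute phase protein, and lies at chr2:32384633-32388252 on the minus strand (GENCODE vM21, mouse build GRCm38). It was at 219, 358, 7962 and 877 CPM, from 1174, 4063, 65865 and 6852 UMIs. Day 3 stood far above the others and day 7 between day 3 and day 1. The day 1 ratio to sham was 1.64 (1.53 to 1.75), that of day 3 36.4 (34.4 to 38.6) and that of day 7 4.01 (3.77 to 4.27). Lrg1 codes for a leucine-rich glycoprotein that acts on endothelial TGF-beta signalling (chr17:56119678-56122001, minus strand). It was at 149.7, 475, 2397 and 192.5 CPM, a ratio of 3.18 (2.95 to 3.42) on day 1 and 16.0 (14.9 to 17.2) on day 3, and on day 7 it was near its sham level at 1.29. With the thinned gate, the day 3 ratios were 17.0 for Lcn2 and 6.81 for Lrg1, and the day 7 ratio of Lcn2 was 2.20. Both genes were low in the other ECs, where Lcn2 was at 6.89, 29.2, 138 and 23.2 CPM and Lrg1 at 1.42, 24.4, 78.4 and 3.51 CPM. Both were nonetheless above sham there on day 3, with log2 ratios of 3.13 and 2.95 (10 CPM added). The list was also higher in the other ECs, with a day 3 median of 1.33 and sums of 687, 1017, 1772 and 883 CPM. Its day 1 median was 0.62 there, against 0.34 in members.

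The receptor and transcription factor genes of the same group showed smaller ratios. Osmr, the oncostatin M receptor, was at 64.2, 100.5, 246 and 123 CPM, 3.83-fold sham on day 3. Il6st, the shared signalling chain gp130, was at 166, 88.5, 287 and 184 CPM and Stat3 at 87.1, 81.5, 144 and 131 CPM, and neither was called on any day. The C/EBP factors Cebpd and Cebpb were at 254, 289, 708 and 336 CPM and 171.5, 220.2, 379 and 125 CPM, both called higher on day 3. Socs3, the feedback inhibitor of this pathway, was at 185, 129, 259 and 182 CPM and was not called. Ch25h, which makes 25-hydroxycholesterol, was at 97.2, 153, 398 and 251 CPM, and ceruloplasmin (Cp), a ferroxidase of the plasma, at 153, 185, 620.0 and 343 CPM. Ch25h and Cp were called higher on day 3 and day 7 and, with Lcn2, were the genes of the group still called on day 7. The day 7 call of Cp is lost with size factors, which shift day 7 by -0.22 on the log2 scale. The serine protease inhibitor Serpina3n, under the level for testing, was at 0.931, 23.6, 87.9 and 5.38 CPM, a day 3 ratio of 94.4 (40.3 to 292), and the metalloproteinase inhibitor Timp1 was at 4.65, 48.5, 55.6 and 3.97 CPM.

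**Figure D3:**
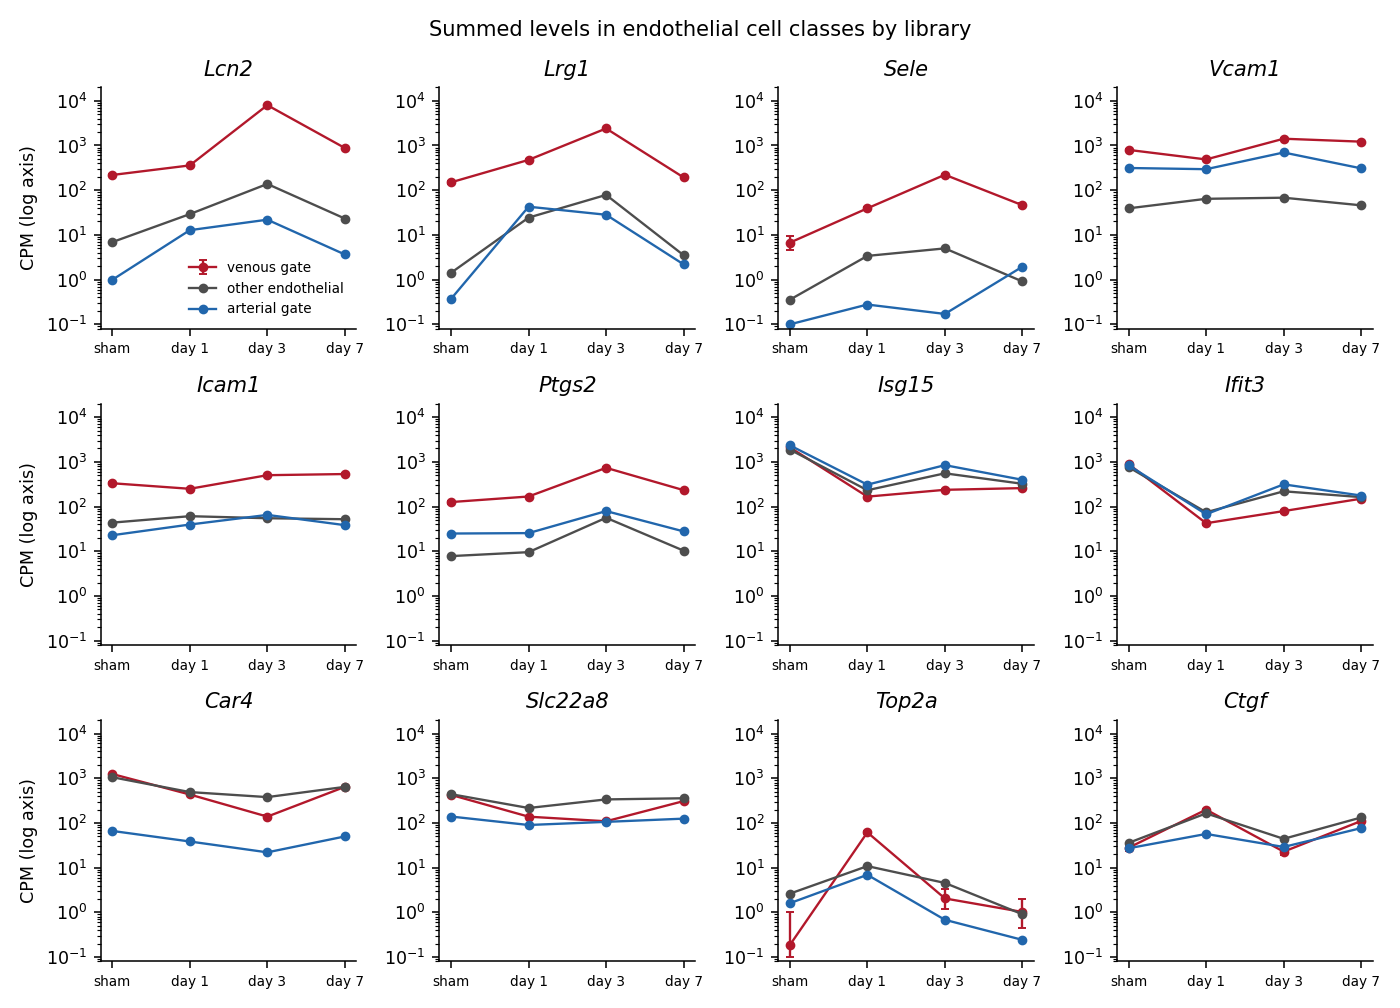
Level in CPM on a log axis of 12 genes in members (venous), other ECs and arterial-gate cells of the 4 libraries; bars on the venous points are exact 95% Poisson intervals, and levels under 0.1 CPM are drawn at 0.1. Lcn2, Lrg1, Sele and Ptgs2 peak on day 3 in the venous points, Isg15 and Ifit3 are highest in sham in all 3 kinds of cell, Car4 is lowest on day 3 and Top2a stands up on day 1.

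Among the genes by which white blood cells attach, and with the rule gene Selp left aside, E-selectin (Sele) showed the largest ratio. Of 11 tested genes of the 14 in the adhesion list, 3 were called higher on day 3 (Sele, Podxl and Cd200) and 0 lower. On day 1 and on day 7, 0 of 10 were called. The list median was -0.41, 0.24 and -0.03. Sele, at chr1:164048234-164057677 on the plus strand, codes for the selectin that captures rolling cells on inflamed venules and was at 6.70, 39.3, 221 and 46.1 CPM, from 36, 446, 1831 and 360 UMIs. The day 1 ratio was 5.86 (4.17 to 8.48), that of day 3 33.0 (23.8 to 47.3) and that of day 7 6.88 (4.88 to 9.98), and with 36 UMIs in sham its size is loosely known. The day 3 ratio of Sele was 10.3 with the thinned gate and 16.0 without the members that held Ackr1. Vcam1, the ligand of the integrin VLA-4 (chr3:116109949-116129688, minus strand), was at 796, 487, 1415 and 1216 CPM, below sham on day 1 at 0.612 (0.588 to 0.637) and above it on day 3 at 1.78 (1.72 to 1.84). Icam1, the ligand of LFA-1 and Mac-1 (chr9:21015985-21028817, plus strand), was at 332.5, 249.8, 503 and 534 CPM, with ratios of 0.751, 1.51 and 1.61. Under the rule used, neither Vcam1 nor Icam1 reached 2-fold on any day. When members with a UMI of Ackr1 were left out both lay below sham on day 3, at 0.692 (0.638 to 0.749) for Vcam1 and 0.603 (0.529 to 0.687) for Icam1. Over the settings tried, the day 3 ratio reached up to 1.91 for Vcam1 and 2.12 for Icam1. The sialomucin Podxl was at 321, 208, 795.5 and 460.5 CPM, and Cd200, the ligand of an inhibitory receptor on myeloid cells, at 537, 724, 1544 and 505 CPM.

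Shares of members with a UMI were compared after each cell was thinned to 1000 UMIs, which left out 18, 61, 54 and 52 members. Of the other ECs it kept 3272 of 3766, 3557 of 4782, 2997 of 3499 and 5174 of 6412, a larger loss. Lcn2 was then found in 11.8%, 20%, 73.9% and 32.9% of members, against 0.275%, 2.42%, 8.28% and 1.49% of other ECs and 0.234%, 1.05%, 3.67% and 0.539% of cells outside the endothelial gate. Cells outside the endothelial gate here are those with a UMI of at most 1 of the 5 endothelial genes. They numbered 3641, 8015, 3949 and 5070 before thinning, and other cells that failed the gate are left out. Without thinning the member shares were 30.8%, 43.9%, 80.6% and 50.1%. On day 3 Lcn2 was therefore in most members rather than in a few. Sele was found in 0.822%, 3.09%, 14.1% and 2.07% of thinned members (2.08%, 11.9%, 32.7% and 7.22% unthinned) and in at most 0.334% of thinned other ECs. Vcam1 was found in 33.9%, 25.7%, 51.7% and 42.0% of thinned members (57.2%, 49.6%, 69.9% and 60.9% unthinned), and Icam1 in 15.8%, 18.1%, 27.6% and 23.7% (42.6%, 45.3%, 53.7% and 45.2% unthinned). The day 1 share of Icam1 lay above sham while its CPM lay below, so no order is read from it.

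**Figure D4:**
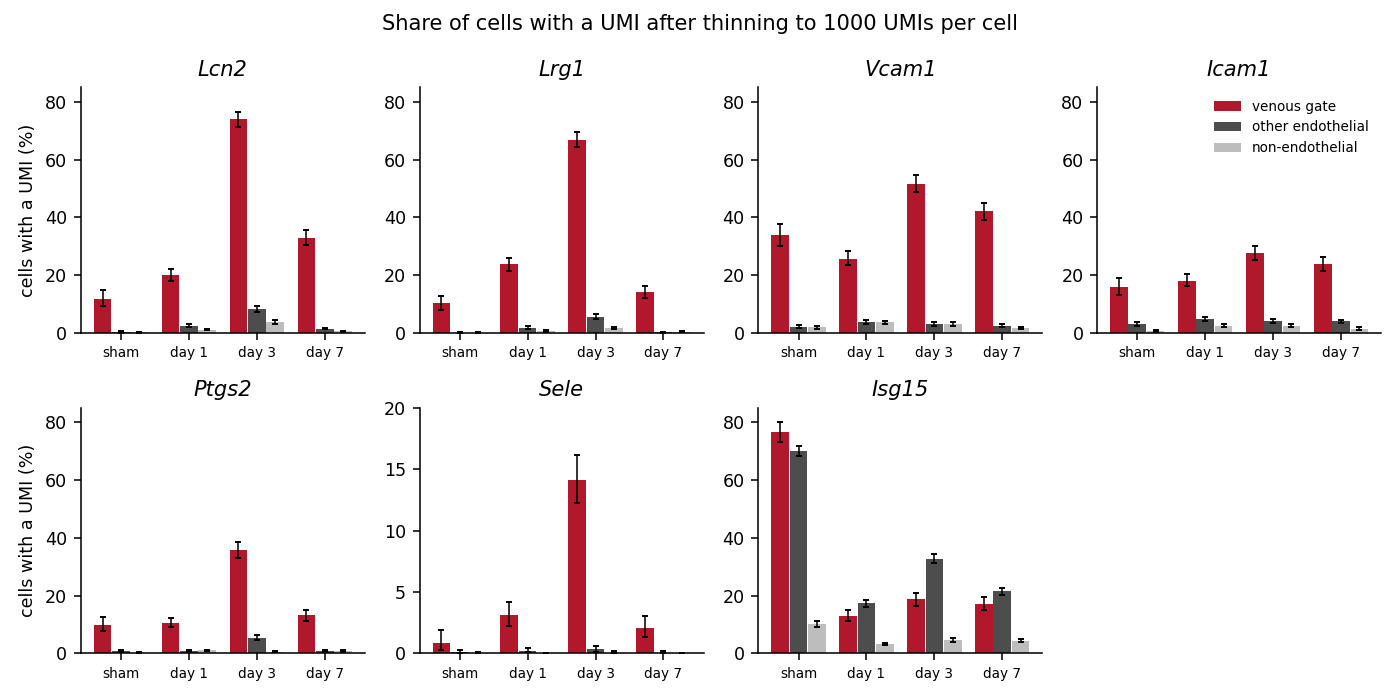
Percent of cells with a UMI of 7 genes after thinning to 1000 UMIs, by library, with exact 95% binomial bars. Bars show members, other ECs and cells outside the endothelial gate, meaning those with at most 1 endothelial gene. The Sele panel runs to 20%. Lcn2 reaches 73.9% of members on day 3 and Isg15 is at 76.6% in sham and 13.1% on day 1, with other ECs at 70.1% and 17.3%.

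The NF-kB and interleukin-1 list, which holds the inhibitors and targets of the pathway that Il1r1 feeds, had few measurable members. Of 5 genes tested of 18, 2 were called higher on day 3 (Ptgs2 and Sod2), and 0 were called on day 1 or day 7. Ptgs2 codes for cyclooxygenase 2, which makes the prostaglandin precursor in venous ECs during fever, and lies at chr1:150100031-150108227 on the plus strand. It was at 126, 168, 735 and 233 CPM, a day 3 ratio of 5.82 (5.38 to 6.31). Sod2, the mitochondrial superoxide dismutase, was at 116, 145, 295 and 102 CPM. Without the members that held Ackr1, the day 3 ratio was 2.04 for Ptgs2 and 1.46 for Sod2, under the 2-fold call, and the sum of the list changed from above to below sham, at 0.607. Nfkbia, the inhibitor that NF-kB itself switches on, was at 3272, 1639, 2320 and 3018 CPM, below sham on each day. Its direction thus differed from that of Ptgs2. Of the chemokines and cytokines, 4 of 15 measured genes passed the level for testing and 0 were called on day 1 or day 3. The neutrophil chemokines Cxcl1 and Cxcl2 were at 284, 217, 330.2 and 231 CPM and 257, 209.9, 269 and 86.0 CPM, and Cxcl2 was called lower on day 7 at 0.335. Ccl2, the monocyte chemokine, was at 0.186, 18.5, 3.14 and 0.128 CPM, from 1, 210, 26 and 1 UMIs, too low to be tested. Csf3, the granulocyte growth factor (chr11:98701263-98703629, plus strand), had 0, 45, 608 and 9 UMIs, or 0, 3.96, 73.5 and 1.15 CPM. Against the limit of 3 UMIs that a count of 0 in sham allows, Csf3 was at least 132-fold higher on day 3, while the other ECs held it at 0, 0.226, 0.217 and 0.0650 CPM.

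Other tested genes with large day 3 ratios were Upp1, Ifitm1, Scgb3a1, Cd14 and Mgp, in that order. Upp1, uridine phosphorylase, was at 2.98, 34.2, 134.5 and 10.5 CPM, 45.2-fold sham on day 3. Ifitm1, an interferon-inducible membrane protein (chr7:140967221-140969825, plus strand), was at 68.5, 207, 2100 and 55.1 CPM, 30.6-fold sham on day 3, and Cd14, a co-receptor for bacterial lipopolysaccharide, at 27.9, 69.6, 639.7 and 36.1 CPM, 22.9-fold sham on day 3. Ifitm1 and Cd14 were low in other ECs on day 3, at 69.5 and 11.3 CPM. Scgb3a1, a secreted protein, was at 35.8, 94.5, 1078 and 47.1 CPM in members and 34.7, 119, 981.5 and 36.0 CPM in other ECs, and Mgp, the matrix Gla protein, at 112, 267, 1068 and 216 and 79.2, 431, 467 and 108.5 CPM, so that both were high on day 3 in both kinds of cell. The iron-storage gene Fth1 was at 5713, 10439, 28109 and 6179 CPM, 4.92-fold sham on day 3. Without the members that held Ackr1, the day 3 ratio was 25.3 for Upp1, 8.94 for Ifitm1, 51.7 for Scgb3a1, 3.83 for Cd14, 5.94 for Mgp and 2.30 for Fth1. With the thinned gate it was 12.1 for Ifitm1, 9.47 for Cd14, 4.56 for Mgp and 3.04 for Fth1. Of the 80 genes called higher on day 3, 41 were also past 2-fold in the other ECs, whereas of the 100 called lower 22 were. In the same direction without regard to size were 79 of the 80 and 96 of the 100. The share of all tested genes past 2-fold in the other ECs was not counted. Both kinds of cell are set against the same sham library, so these counts are a description only.

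Ackr1 is a gene of the rule, and its level differed most between libraries, so the members were also described with and without a UMI of it. The numbers with and without were 93 and 533 in sham, 403 and 983 on day 1, 843 and 444 on day 3 and 286 and 975 on day 7. The cells with Ackr1 were deeper, with a median of 8182, 9634, 5204 and 5646 UMIs against 5872, 4911, 2473 and 3656. Lcn2 was higher in the cells with Ackr1 by 10.3, 3.84, 7.62 and 4.39 times, on day 3 at 10107 against 1326 CPM. Lrg1 was higher by 9.12, 5.28, 5.52 and 6.14 times, Sele by 9.41, 5.13, 6.90 and 10.0 times and Cd14 by 7.80, 7.57, 18.1 and 5.30 times. Capillary genes had the opposite order. Car4 in cells with Ackr1 was 0.225, 0.415, 0.234 and 0.282 times its level in those without, and Mfsd2a 0.197, 0.352, 0.305 and 0.357 times. This order held in each of the 4 libraries for all of these genes, sham included. On day 3 Csf3 was at 97.3 CPM in cells with Ackr1 and 0 in those without. Among members without an Ackr1 UMI, the day 3 ratio to sham was 17.0 for Lcn2 (15.2 to 19.1) and 9.36 for Lrg1 (8.16 to 10.8), which is less than over all members. This split uses a gene that chose the cells, and the part of depth in it was not tested, so these ratios are a description only. Without the members that held S100a8 or S100a9, the day 3 ratio of Lcn2 was 36.9 (34.8 to 39.2) and that of Sele 32.7 (23.5 to 46.8).

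**Figure D5:**
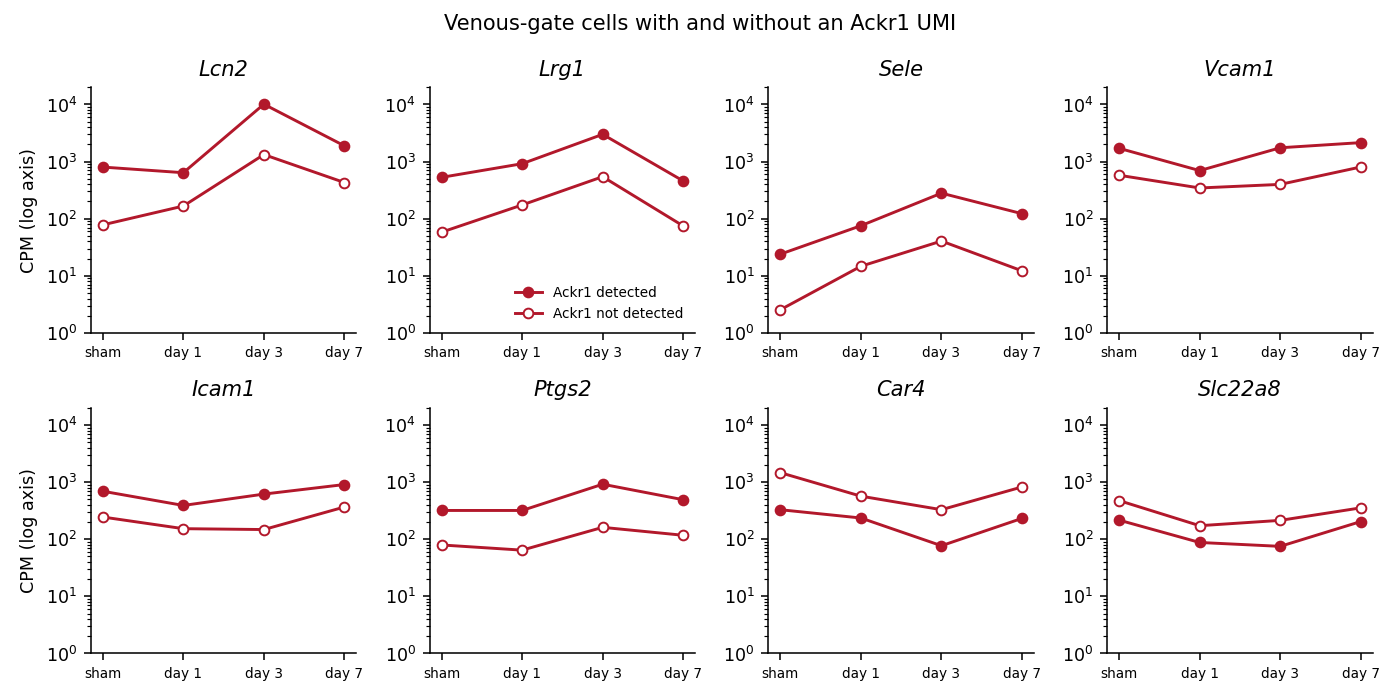
Level in CPM on a log axis of 8 genes in members with a UMI of Ackr1 and in members without, by library. Lcn2 on day 3 stands at 10107 CPM with Ackr1 and 1326 CPM without, and the capillary genes stand lower in the cells with Ackr1 in each library.

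Genes of the interferon response, which defend against viruses, were mostly highest in sham. Of 17 tested genes of 18, 15 were called lower and 1 higher (Ifitm1) on day 1, 12 lower and 1 higher (Ifitm1) on day 3, and 12 of 16 lower and 0 higher on day 7. The medians were -2.35, -1.73 and -1.40 on the log2 scale, and the summed level was 13989, 4201, 10397 and 4600 CPM. The day 3 ratio of the sum was 0.743, and 0.455 without the members that held Ackr1. This sum weighs abundant genes most. Ifitm1 stood at 2100 CPM on day 3 against 68.5 CPM in sham, and Ifitm3, given below, was near sham that day. Most genes of the list stayed well under sham on day 3, with 12 of 17 called lower. Isg15, a ubiquitin-like protein that is attached to other proteins (chr4:156199424-156200818, minus strand), was at 2109, 167, 237 and 259 CPM, with ratios of 0.0792 (0.0754 to 0.0831), 0.112 (0.107 to 0.118) and 0.123 (0.117 to 0.129). The RNA-binding proteins Ifit1 (chr19:34640871-34650009, plus strand) and Ifit3 (chr19:34583531-34588731, plus strand) were at 660.4, 45.7, 86.7 and 161 CPM and 889, 42.5, 79.3 and 150.2 CPM, and Ifit3b, a close copy of Ifit3 whose reads may be split with it, at 344, 14.2, 25.1 and 49.4 CPM. Irf7, the factor that amplifies the response, was at 685, 51.5, 100.4 and 139.8 CPM. In each of these genes sham stood above all 3 injury days, by 4 times or more, and day 1 was lowest. The other ECs likewise had sham highest and day 1 lowest, with Isg15 at 1886, 232, 554 and 323 CPM, and so did arterial-gate cells, at 2344, 309, 844 and 397 CPM. Cells outside the endothelial gate, meaning those with at most 1 endothelial gene, also had it. An Isg15 UMI was in 10.1% of them in sham, 3.17% on day 1, 4.76% on day 3 and 4.38% on day 7 after thinning to 1000 UMIs (27.1%, 9.01%, 14.7% and 13.5% unthinned). The high sham level of Isg15 was thus seen in members, other ECs, arterial-gate cells and the pool of cells outside the endothelial gate. The cell types within that pool were not measured apart.

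The promoters of Isg15, Ifit1 and Ifit3 are shown because these genes shared the order of sham first and day 1 last. Sequences are the 200 bases before the RefSeq start site (build GRCm38.p6), 5′ to 3′ on the strand of the gene, with matches to the interferon-stimulated response element (ISRE, here GAAA followed by any 2 bases and GAAA again, on either strand) in capitals: Isg15 at chr4:156200819-156201018 (minus), Ifit1 at chr19:34640689-34640888 (plus) and Ifit3 at chr19:34583329-34583528 (plus).
Isg15: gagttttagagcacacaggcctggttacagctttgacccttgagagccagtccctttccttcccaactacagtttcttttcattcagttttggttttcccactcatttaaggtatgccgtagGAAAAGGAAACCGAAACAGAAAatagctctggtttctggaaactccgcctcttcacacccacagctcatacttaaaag
Ifit1: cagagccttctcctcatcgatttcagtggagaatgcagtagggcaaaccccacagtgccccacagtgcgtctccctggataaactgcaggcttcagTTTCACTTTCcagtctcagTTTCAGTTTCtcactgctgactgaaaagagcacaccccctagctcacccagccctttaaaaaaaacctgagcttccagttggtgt
Ifit3: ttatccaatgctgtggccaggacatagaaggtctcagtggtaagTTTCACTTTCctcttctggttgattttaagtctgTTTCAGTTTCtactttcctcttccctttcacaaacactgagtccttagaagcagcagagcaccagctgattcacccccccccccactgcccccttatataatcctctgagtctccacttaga
Isg15 holds 3 overlapping matches that begin 78, 72 and 66 bases before the start site, Ifit1 holds matches at 104 and 85 bases and Ifit3 at 156 and 122 bases. Over windows from 250 bases before to 50 bases after each start site, an ISRE match was found in 3.44% of 32851 windows. The shares of genes that follow are not a like measure, because a gene counts with a match in any of its windows. A promoter was in the table for 88 of the 122 genes called lower on day 1, of which 22 held a match (25%), against 3.73% of the genes not called. On day 3 it was 10 of 75 (13.3%) against 4.62%, and on day 7 it was 9 of 22 (40.9%) against 4.67%. A match describes letters in the window and does not show that a factor was bound. The windows of Lcn2, Lrg1 and Ptgs2 held no match to any of the 3 motifs searched.

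Antigen presentation genes were lower on day 1 and mostly near sham later. Of 8 tested genes of 14, 7 were called lower on day 1. On day 3, 1 was higher (H2-Q7) and 0 lower, and on day 7, 1 was lower (Psmb8). The class I heavy chain H2-K1 was at 1813, 687, 2107 and 1729 CPM and its partner B2m at 1509, 736, 1490 and 1497 CPM, both near sham on day 3 and day 7. H2-Q7, a class I gene with near-identical copies between which reads may be split, was at 153, 38.8, 321 and 189 CPM. Psmb8, a subunit of the immunoproteasome, was at 564, 150.0, 326 and 270.3 CPM and was under sham on each injury day. Ifitm3, an interferon response gene that restricts virus entry, was at 5949, 2830, 6502 and 2288 CPM, near sham on day 3 only.

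Of the 61 genes called higher on day 3 with a promoter in the table, 17 held a match to the NF-kB site (kappaB), or 27.9%. Among the genes not called it was 12.04%. Of all single windows 8.46% held a match, which is not a like measure, because a gene counts with a match in any of its windows. In Tmem176a and Tmem176b, 2 of the 17, the windows overlap on opposite strands and hold the same site, and the near-identical copies Hspa1a and Hspa1b are both among the 17 as well. The share was also above that of the genes not called among genes lower on day 7 (18.2%), lower on day 1 (17.0%) and higher on day 1 (15.2%). Ier3, an early response gene, Tm4sf1, a tetraspanin-like protein of ECs, and Sele are shown as examples in the same way as above, from chr17:35821513-35821712 (plus), chr3:57301989-57302188 (minus) and chr1:164048034-164048233 (plus). Capitals mark kappaB matches in Ier3 and Tm4sf1 and a STAT match (TTCNNNGAA) in Sele.
Ier3: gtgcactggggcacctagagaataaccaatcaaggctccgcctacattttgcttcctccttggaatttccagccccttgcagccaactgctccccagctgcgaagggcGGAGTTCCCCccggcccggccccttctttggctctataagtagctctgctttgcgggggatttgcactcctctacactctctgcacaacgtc
Tm4sf1: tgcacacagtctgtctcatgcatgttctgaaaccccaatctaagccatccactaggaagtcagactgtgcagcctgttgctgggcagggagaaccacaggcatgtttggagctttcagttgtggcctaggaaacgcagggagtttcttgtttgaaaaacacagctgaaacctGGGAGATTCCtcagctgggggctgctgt
Sele: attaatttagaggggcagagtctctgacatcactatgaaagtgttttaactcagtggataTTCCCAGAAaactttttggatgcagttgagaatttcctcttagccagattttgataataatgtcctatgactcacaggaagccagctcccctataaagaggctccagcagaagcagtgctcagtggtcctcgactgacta
The matches begin 92, 28 and 140 bases before the start site. Ier3 was at 773, 940.4, 2714 and 657 CPM and Tm4sf1 at 473, 909.5, 1368 and 392 CPM, both highest on day 3. A STAT match was held by 8 of the 61 genes higher on day 3 (13.1%), against 8.1% of the genes not called. This share was not particular to that group. It was 18.2% among genes lower on day 7, 12.5% lower on day 1, 12% higher on day 7, 9.33% lower on day 3 and 6.52% higher on day 1.

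Transporters of the blood-brain barrier, which feed the brain and keep toxins out, were lower in part on day 1 and day 3. Of 19 tested genes of 20, 3 were called lower on day 1 (Slc22a8, Slc6a6 and Mfsd2a), 6 lower on day 3 (these 3 with Tfrc, Slc7a1 and Slc40a1), and on day 7 1 was higher (Tfrc). The summed level was 10841, 8593, 8804 and 14257 CPM, highest on day 7, and its day 1 ratio lay above sham at 1.06 with the gate read on thinned cells. The organic anion transporter Slc22a8 (chr19:8591254-8611835, plus strand) was at 425, 138, 109 and 308.5 CPM, a ratio of 0.326 (0.305 to 0.347) on day 1 and 0.257 (0.237 to 0.278) on day 3. Mfsd2a, which carries lysolipids with docosahexaenoic acid and holds transcytosis low, was at 267, 100.3, 98.6 and 161 CPM. The transferrin receptor Tfrc was at 316.5, 280.0, 138 and 674 CPM, 0.437 of sham on day 3 and 2.13 on day 7, and the iron exporter Slc40a1 at 286, 211, 87.0 and 257 CPM. Tfrc thus lay on opposite sides of sham on day 3 and day 7. Its day 7 call is lost with size factors, which shift day 7 by -0.22 on the log2 scale against sham. The day 3 calls of Tfrc and Mfsd2a were lost under other gates, with ratios of 0.561 and 0.555 for the thinned gate and of 0.674 and 0.657 without the members that held Ackr1, and that of Slc22a8 was then 0.451. The taurine transporter Slc6a6, which overlaps Gm45828 on the same strand, was at 955, 436, 382 and 1857 CPM. Not called on any day were the glucose transporter Slc2a1, at 1595, 1558, 2024 and 2031 CPM, and the organic anion transporter Slco1a4, at 1624, 1549, 1693 and 2795 CPM.

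Capillary markers gave 3 genes lower of 9 on day 1, 4 lower on day 3 (Car4, Mfsd2a, Tfrc and Rgcc) and 1 higher on day 7 (Tfrc). As given above, the calls of Mfsd2a and Tfrc on day 3 and of Tfrc on day 7 are lost under other settings. Car4, a membrane-bound carbonic anhydrase of capillaries (chr11:84957786-84966044, plus strand), was at 1245, 433, 139 and 642 CPM, with ratios of 0.348 (0.336 to 0.361) on day 1 and 0.112 (0.105 to 0.119) on day 3. In the other ECs it was at 1056, 491, 379 and 642 CPM, also lowest on day 3. The day 3 ratio of Car4 in members was 0.225 without those that held Ackr1 and 0.190 with the thinned gate.

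Of the genes that respond to blood flow, the Krüppel-like factors were lower early after tMCAO. Klf2, the transcription factor that laminar shear keeps high, was at 6598, 2308, 2653 and 4005 CPM and Klf4 at 764, 299, 362 and 848 CPM, and these were 2 of 7 tested genes called lower on day 1 and on day 3, with 0 called on day 7. The day 1 ratio of the summed list was 0.437, against 0.689 with the thinned gate and at most 0.713 over the settings. Of the VEGF, angiopoietin and apelin list, 9 of 20 genes were tested. Nrp1 (103, 42.3, 67.7 and 108 CPM) and Nrp2 (166, 67.6, 141.5 and 234 CPM), co-receptors of VEGF and semaphorins, were called lower on day 1, and the VEGF receptor Kdr (398, 216, 179 and 583 CPM) on day 3. Apln, the apelin ligand of tip cells, was under the level for testing but was at 2.42, 85.5, 3.26 and 0.640 CPM, a day 1 ratio of 35.3 (20.6 to 66.5), with 1.42, 88.4, 3.15 and 0.779 CPM in other ECs. The vasodilator peptide adrenomedullin (Adm) was at 34.1, 97.0, 63.2 and 35.3 CPM. Apln and Adm were both highest on day 1, and the day 1 ratio of Apln ranged from 16.9 to 43.2 over the gates tried. None of the tested junction genes was called on any day, which were 6 on day 1, 6 on day 3 and 8 on day 7. In the coagulation list, the plasminogen activator Plat (136, 134.5, 59.6 and 264 CPM) and the serine protease Prss23 (188, 96.5, 31.7 and 213 CPM) were called lower on day 3, 2 of 4 tested. Tsc22d3, a target of glucocorticoids, was at 720.5, 551, 302 and 571 CPM, the 1 of 6 tested genes of its list called lower, on day 3. Of the Notch list, Hes1 alone was called, lower on day 3 (256.5, 142, 107 and 175 CPM).

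Genes of the cell cycle, the matrix and protein folding were among those called higher on day 1. Of the proliferation list, 2 of 4 tested genes were called higher on day 1, the chromatin genes Hmgb2 (176, 399, 159 and 191 CPM) and H2afz (396, 958, 339 and 304 CPM), and 0 on day 3 or day 7. The mitotic genes lay under the level for testing. Birc5, survivin of the chromosomal passenger complex (chr11:117849251-117855743, plus strand), was at 0, 81.9, 2.06 and 0.128 CPM, and with 0 UMIs in sham it was at least 147-fold higher on day 1. Top2a, the topoisomerase of dividing cells (chr11:98992943-99024189, minus strand), was at 0.186, 61.7, 2.06 and 1.02 CPM from 1, 700, 17 and 8 UMIs, and Ube2c, which marks mitotic proteins for breakdown, was at 1.30, 75.8, 7.37 and 0.640 CPM, a day 1 ratio of 58.2 (28.1 to 145). These mitotic genes were highest on day 1 and at or under 7.37 CPM in the other libraries. Over the gates tried the day 1 ratio of Top2a, which rests on 1 UMI in sham, ranged from 24.9 to 354. Cells with UMIs of at least 3 of 10 mitotic genes, a definition chosen after values were seen, numbered 0 of 626 members in sham, which allows a share of up to 0.588%, 106 of 1386 on day 1 (7.65%, 6.30 to 9.18), 3 of 1287 on day 3 and 1 of 1261 on day 7. On day 1 they were 25 of 4782 other ECs (0.523%) and 5 of 816 arterial-gate cells (0.613%). After thinning to 1000 UMIs the day 1 shares were 2.57% of members (1.78 to 3.57), 0.225% of other ECs and 0.127% of arterial-gate cells. Membership was still set at full depth there, so these shares are not fully matched for depth. With the gate read on thinned cells, the day 1 ratio of the summed proliferation list was 1.56, against 2.24 under the rule used. The 106 cells had a median of 16516 UMIs, and Scrublet had marked 6 of them. Ccnd1, the cyclin of entry into the cycle, was at 25.5, 164.5, 32.8 and 31.0 CPM in members and 53.6, 123, 52.9 and 58.6 CPM in other ECs.

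In the matrix list, 3 of 11 tested genes were called higher on day 1 (Ctgf, Cyr61 and Col4a2) and 0 lower. Ctgf (chr10:24595442-24598683, plus strand) and Cyr61 code for matricellular proteins that respond to stretch and were at 27.9, 199, 22.9 and 111 CPM and 90.1, 265, 183 and 219 CPM. The Ctgf ratio was 7.12 (6.03 to 8.46) on day 1, 0.818 on day 3 and 3.97 (3.33 to 4.75) on day 7, so it was high on day 1 and day 7 and not between. With the thinned gate the day 1 ratio was 19.7 for Ctgf. The basement membrane collagens Col4a1 and Col4a2 were at 291, 532.5, 276 and 299.9 CPM and 163.5, 372, 198.5 and 213 CPM. Sparc, a collagen-binding matrix protein, was at 1905, 2517, 1096 and 911 CPM and was called lower on day 7. Of the heat shock list, 2 of 10 tested genes were higher on day 1 and 3 on day 3. Hspa1a and Hspa1b, near-identical copies of the inducible HSP70 gene, were at 380.5, 964, 1382 and 518 CPM and 118, 819, 983 and 143 CPM, with Hspa1b at 87.2, 845.5, 983 and 79.9 CPM in other ECs. The day 1 ratio of Hspa1b was 6.95, and 34.9 with the thinned gate. Hspa5, the chaperone of the endoplasmic reticulum, was at 316, 322, 687 and 483.5 CPM. In the hypoxia and glycolysis list Gapdh (439, 969.7, 1146 and 455.5 CPM) was called higher on day 1 and day 3 and Pgk1 (82.8, 167, 182 and 98.3 CPM) on day 3, of 7 tested genes on either day. Other large day 1 ratios were those of Igfbp3, a binding protein of insulin-like growth factors, at 8.01, 102, 52.6 and 18.6 CPM, Hrct1 at 22.1, 118.5, 161 and 34.2 CPM, Ercc1, a DNA repair gene, at 27.2, 107, 35.5 and 31.9 CPM, S100a11, a calcium-binding protein, at 179.7, 600.1, 594 and 211 CPM, and Ctla2a, a protease inhibitor gene that overlaps others on its strand, at 1341, 5328, 2768 and 1828 CPM. Each of these was also higher on day 1 than in sham in the other ECs, for instance Igfbp3 at 63.3, 163, 191 and 85.8 CPM. The day 1 ratio of Igfbp3 in members was 12.7 and ranged from 3.83 to 38.4 over the gates tried. Gm42418, which overlaps ribosomal RNA sequence, was at 8998, 817, 1703 and 4006 CPM, highest in sham.

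Of the immediate-early list, which cell preparation can also switch on, 2 of 12 tested genes were called lower on day 1 (Jun and Klf6). On day 3, 2 were higher (Egr1 and Ier3) and 1 lower (Dusp1), and on day 7, 2 were higher (Egr1 and Fosb). With size factors, which shift day 7 by -0.22 on the log2 scale, the day 7 call of Fosb is lost. Egr1, a zinc finger factor, was at 273.5, 394, 624 and 1008 CPM and Fosb, an AP-1 subunit, at 462, 349.7, 587 and 1058 CPM, and in both day 7 was the highest library. The other genes with the largest day 7 ratios were Rictor, a subunit of mTOR complex 2, at 40.2, 49.0, 68.8 and 124 CPM, Syne1, a nuclear envelope spectrin-repeat protein, at 69.3, 57.6, 64.5 and 212 CPM, Zmiz1, a transcriptional coregulator, at 75.2, 75.1, 83.5 and 203 CPM, Tmx4, a thioredoxin-like membrane protein, at 46.9, 46.2, 49.3 and 134 CPM, and Gm26802 at 64.8, 25.2, 49.7 and 208 CPM. In the other ECs Syne1 was at 264, 134, 204 and 596 CPM and Rictor at 71.5, 84.6, 114.5 and 203 CPM, again highest on day 7. Of the 34 genes called higher on day 7, 21 were also past 2-fold in the other ECs, and of the 30 called lower, 26. These counts too share the sham library and have no share over all tested genes beside them, so they are a description only.

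Against the other ECs of the same library, 1407 genes outside the rule were compared as a description. The ratios of this comparison have 10 CPM added to both levels. This lowers them most for genes of low level in the other ECs, such as Lrg1 at 1.42 CPM there in sham. They therefore differ from plain ratios of the CPM given above. At least 2-fold higher in members in all 4 libraries were 12 genes, and 12 were at most 0.5 times as high in all 4. Lrg1 led this order, with a lowest ratio of 14.0 and a highest of 27.2, followed by Lcn2 (9.39 to 54.0), Ptgs2 (7.65 to 11.95), Vcam1 (6.70 to 22.0), Cxcl1 (4.18 to 7.83) and Icam1 (3.66 to 8.75). Lrg1, Lcn2, Vcam1 and Icam1 were thus higher in members than in other ECs in sham as well as after tMCAO. Lower ratios belonged to Myof, a membrane repair protein (3.10 to 6.69), Slc38a5 (2.75 to 4.74), Clint1, an adaptor of clathrin coats (2.61 to 3.18), the lysosomal protease gene Ctsc (up to 4.30) and the secreted ribonuclease Rnase4 (2.48 to 3.37). At the other end, Cxcl12, a chemokine of capillary and arterial ECs, was at 0.128 to 0.212 of its level in other ECs, the capillary gene Rgcc at 0.210 to 0.373 and Mfsd2a at 0.218 to 0.420. Vcam1 was also present in arterial-gate cells, at 313, 295, 696 and 307.5 CPM, whereas Lcn2 was at 0.989, 12.8, 21.9 and 3.65 CPM there.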

How the data were processed

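The deposited files hold UMI counts per gene and cell for 31053 features in 4 libraries, which the authors made with Cell Ranger from droplet 3′ libraries without normalization. The submitters' processing notes name Cell Ranger 3.0.1, Seurat 4.1.2 and the human build GRCh38, while the file headers name Cell Ranger 4.0.0 and the gene identifiers are those of mouse. Values from the authors' later normalization and clustering were not used here. Groups were taken from the labels, with 1 library each.

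Cells were filtered and gated as described in the report, and a confidence level of 95% was used for exact Poisson, conditional ratio and binomial intervals. UMIs were summed over members per library and scaled to CPM. Genes were compared at 100 CPM or more in 1 of both libraries. Those over 5 times higher in non-endothelial cells (at most 1 endothelial gene) and the genes of the rule were left out. For shares, cells were thinned without replacement to 1000 UMIs, or 2000 as an alternative. Scrublet, run through scanpy, marked doublets, which were kept. Gene coordinates are those of GENCODE vM21 and promoters those of RefSeq. Python 3.11.15, numpy 2.4.6, pandas 2.3.3, scipy 1.17.1, scanpy 1.11.5 and matplotlib 3.10.9 were used, and the scripts were tested on simulated data.

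Members held 5371336, 11351546, 8272836 and 7809312 UMIs in sham, day 1, day 3 and day 7, so that a count of 0 allows 3 UMIs, or 0.559 CPM in sham. The members and gene lists were chosen with earlier results of these data known. Named genes were the rule genes, members of the lists past 2-fold or with a described role, the 8 largest ratios per day in each direction and the genes most unlike the other ECs. Other limits on genes per cell, mitochondrial share, gate, level, added CPM, scaling and doublets were tried.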

Additional observations from a re-analysis of the deposited data

How the results depend on the processing

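No paired analysis was possible because each group held 1 library, and no library could be left out in turn. Of the 132 counts of called genes under other settings, 123 were within 1.5 times of those reported, but the genes called differed more. Of the 57 genes higher on day 1, 18 were also called with the thinned gate and 30 at no more than 3000 genes per cell. Of the 80 higher on day 3, 63 were called under each of these settings and 36 without the members that held Ackr1. Of the 34 higher on day 7, 12 were called with the thinned gate and 18 at the 3000-gene limit. With the gate read on thinned cells 36 genes were higher on day 1 and 20 on day 7. At a level of 200 CPM, 79 were lower on day 1, 65 lower on day 3 and 22 higher on day 7. Size factors gave 10 higher and 49 lower on day 7, and totals without mitochondrial and ribosomal genes gave 90 higher on day 1. The mean of CPM per cell gave 22 higher on day 7. The member share in sham, day 1, day 3 and day 7 was 8.20%, 14.5%, 18.2% and 10.6% at no more than 3000 genes per cell, the limit in the study's methods, and 3.69%, 7.23%, 13.8% and 6.80% with the thinned gate. Without Vwf in the gate it was 4.92%, 8.36%, 13.2% and 6.75%, without Nr2f2 7.42%, 14.4%, 18.7% and 9.14%, and without Il1r1 7.99%, 13.8%, 17.0% and 10.0%. With at least 3 of the 5 genes it was 4.48%, 8.02%, 12.8% and 6.28%, and with Vwf and Nr2f2 both 7.38%, 11.9%, 11.1% and 9.31%. Without Ackr1 it was 18.4% on day 1 and 18.9% on day 3, and at 5% mitochondrial UMIs 20.6% on day 1. Leaving out members with S100a8 or S100a9, chosen after seeing the data like the omission of Ackr1 members, gave 17.3% on day 3. The cause of each shift was not tested. Over the settings, the day 3 ratio ranged from 17.0 to 38.7 for Lcn2, 6.81 to 18.4 for Lrg1, 10.3 to 39.2 for Sele, 2.04 to 6.34 for Ptgs2 and 0.0817 to 0.225 for Car4, and the summed interferon list was 0.268 to 0.373 of sham for day 1, 0.455 to 0.848 for day 3 and 0.303 to 0.381 for day 7. The summed lists that changed side of sham under a setting on at least 1 day were those of chemokines, NF-kB, antigen presentation, barrier transport, glucocorticoids, heat shock, immediate-early genes, matrix and proliferation. Genes under about 100 CPM rest on few UMIs per cell, and a shift under 2-fold could not be set against any spread between mice.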
